A study of Mus musculus with 12 samples.

Results

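The 9 genes described here encode potassium channel subunits of 2 families, the inward rectifiers (Kcnj3, Kcnj4, Kcnj6 and Kcnj9) and the two-pore domain channels (Kcnk1, Kcnk2, Kcnk3, Kcnk9 and Kcnk10). They were chosen by gene symbol from the 15759 entries of a table of normalized counts, and all 9 were among the 15369 entries that passed the filter on low values. Messenger RNA was profiled in whole cortex and whole cerebellum of the SCA1 knock-in (SCA1 KI) mouse, a model of spinocerebellar ataxia type 1, with 3 libraries in each of 4 groups. The SCA1 KI groups carried 1 expanded Atxn1 allele (Atxn1 154Q/2Q), expressed from the endogenous locus in every cell that uses it, and the WT groups were littermates. All 4 groups were C57BL/6J mice of 12 weeks of age and received no treatment. GEO's labels give male mice, whereas the study's methods describe both sexes. Both tissues were macrodissected whole and then frozen, so a library holds every cell type of the piece that was taken, and fewer cells of a type cannot be told apart from less RNA per cell. Libraries are named by the letters and numbers of the deposited columns, which are B, C and D for WT cortex, A, E and F for SCA1 KI cortex, 2, 4 and 6 for WT cerebellum, and 1, 3 and 5 for SCA1 KI cerebellum. The libraries of a group are called biological replicates, and no source used here says that each came from 1 animal, so p-values measure the spread between these samples.

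Inward rectifiers pass potassium more readily into the cell than out of it and hold the membrane near its resting potential. The G protein-gated members, called GIRK channels, are tetramers that open when the beta-gamma dimer of an inhibitory G protein binds to them, and they carry the slow postsynaptic inhibition of GABA-B, adenosine and other receptors. Two-pore channels are dimers that leak potassium at rest. They are closed or opened by acid, lipids, stretch, volatile anaesthetics and Gq-coupled receptors, and the TASK type is well known in cerebellar granule cells.

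The promoters of the 4 inward rectifier genes are printed first, because 3 of them encode subunits of one channel whose transcripts were lower together in SCA1 KI cortex and the fourth had the largest change in the cerebellum. Each window runs from 250 bases before to 50 bases after a RefSeq start (GRCm38.p6), is written 5′ to 3′ along the strand of the gene, and has GGGCGG (or CCGCCC, its reverse complement) and TATAAA in capitals. The windows are chr2:55435720-55436019 (plus strand) for Kcnj3, chr16:94997647-94997946 (minus strand) for the upstream start of Kcnj6, chr1:172329273-172329572 (minus strand) for Kcnj9 and chr15:79505192-79505491 (minus strand) for Kcnj4.
Kcnj3: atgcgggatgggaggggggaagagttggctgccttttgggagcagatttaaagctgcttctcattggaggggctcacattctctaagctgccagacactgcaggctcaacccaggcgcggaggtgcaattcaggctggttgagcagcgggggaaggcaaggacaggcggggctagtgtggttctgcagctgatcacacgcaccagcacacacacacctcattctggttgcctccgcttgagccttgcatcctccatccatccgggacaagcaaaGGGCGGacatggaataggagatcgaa
Kcnj6: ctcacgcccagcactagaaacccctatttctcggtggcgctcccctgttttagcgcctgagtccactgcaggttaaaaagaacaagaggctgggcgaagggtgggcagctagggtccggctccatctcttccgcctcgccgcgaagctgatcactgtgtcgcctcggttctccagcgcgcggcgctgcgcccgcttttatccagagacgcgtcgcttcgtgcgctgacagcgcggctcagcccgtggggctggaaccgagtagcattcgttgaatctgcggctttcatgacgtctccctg
Kcnj9: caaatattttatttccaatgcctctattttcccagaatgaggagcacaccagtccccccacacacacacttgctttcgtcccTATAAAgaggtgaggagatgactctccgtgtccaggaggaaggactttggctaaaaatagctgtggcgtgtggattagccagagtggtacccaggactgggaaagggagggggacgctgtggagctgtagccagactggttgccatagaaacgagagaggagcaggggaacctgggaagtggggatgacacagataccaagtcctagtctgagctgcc
Kcnj4: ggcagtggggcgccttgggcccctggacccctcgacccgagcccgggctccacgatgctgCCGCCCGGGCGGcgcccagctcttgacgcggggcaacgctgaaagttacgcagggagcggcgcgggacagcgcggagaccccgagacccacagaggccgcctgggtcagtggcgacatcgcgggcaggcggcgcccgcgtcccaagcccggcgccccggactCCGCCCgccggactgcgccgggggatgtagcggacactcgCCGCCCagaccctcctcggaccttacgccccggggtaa

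The 4 windows differed in base composition. The Kcnj4 window held 76.0% G and C, 41 CpG dinucleotides and 4 matches to GGGCGG, of which 2 lie side by side. The Kcnj9 window held 52.3% G and C, 5 CpG and no GGGCGG, and it was the one window of the members with TATAAA. Kcnj3 and the upstream start of Kcnj6 had 57.7% and 62.0% G and C with 10 and 30 CpG, against a median of 52.7% and 7 CpG over 32851 mouse windows of 300 bases. The octamers TGAATGAA and TGAATGGA, bound by Capicua, a repressor that forms a complex with ataxin-1, were searched on both strands. TGAATGAA was in 0 of the 12 windows listed for 7 members and in 1.3% of all windows, and TGAATGGA was in 0 of 12 and in 1.21%. GGGCGG was in 5 of 12 member windows and in 35.7% of all windows, TATAAA was in 1 of 12 and in 13.6%, and TGACGTCA, the palindromic cyclic AMP response element, was in 0 of 12 and in 1.79%. These matches describe the letters of the windows and not binding. Kcnk3 and Kcnk9 were not in the table of windows.

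In WT cortex Kcnj4, which encodes the constitutively active Kir2.3, was the most abundant of the 9 genes, and in WT cerebellum it was the least abundant. Levels were compared between genes as normalized counts per kb of exon of the annotation (GENCODE vM21, GRCm38). In WT cortex Kcnj4 reached 2650 ± 231 per kb (SD, n = 3), followed by Kcnk1 with 1950 ± 64.3 and Kcnj9 with 1680 ± 54.9. Kcnk2 with 708 ± 27.6 and Kcnj3 with 700 ± 44.8 per kb came next, and the ranges of these neighbours overlapped. Below them stood Kcnk3 with 328 ± 39.9, Kcnj6 with 234 ± 18.8, Kcnk9 with 62.2 ± 7.31 and Kcnk10 with 17.1 ± 0.975 per kb. In WT cerebellum Kcnk1 led with 3580 ± 522 per kb. Kcnk3 with 1080 ± 191 and Kcnj9 with 1060 ± 136 followed and overlapped, and Kcnj3 had 460 ± 57.4 and Kcnk2 174 ± 25.9. Kcnj6 with 105 ± 9.77 and Kcnk10 with 98.7 ± 10.2 overlapped, and Kcnk9 with 56.5 ± 1.52 and Kcnj4 with 26.5 ± 5.67 per kb were lowest. The plot of levels per length shows the same order, and the length used matters most for Kcnj6, whose longest transcript gave 492 per kb in WT cortex in place of 234.

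**Figure D1:**
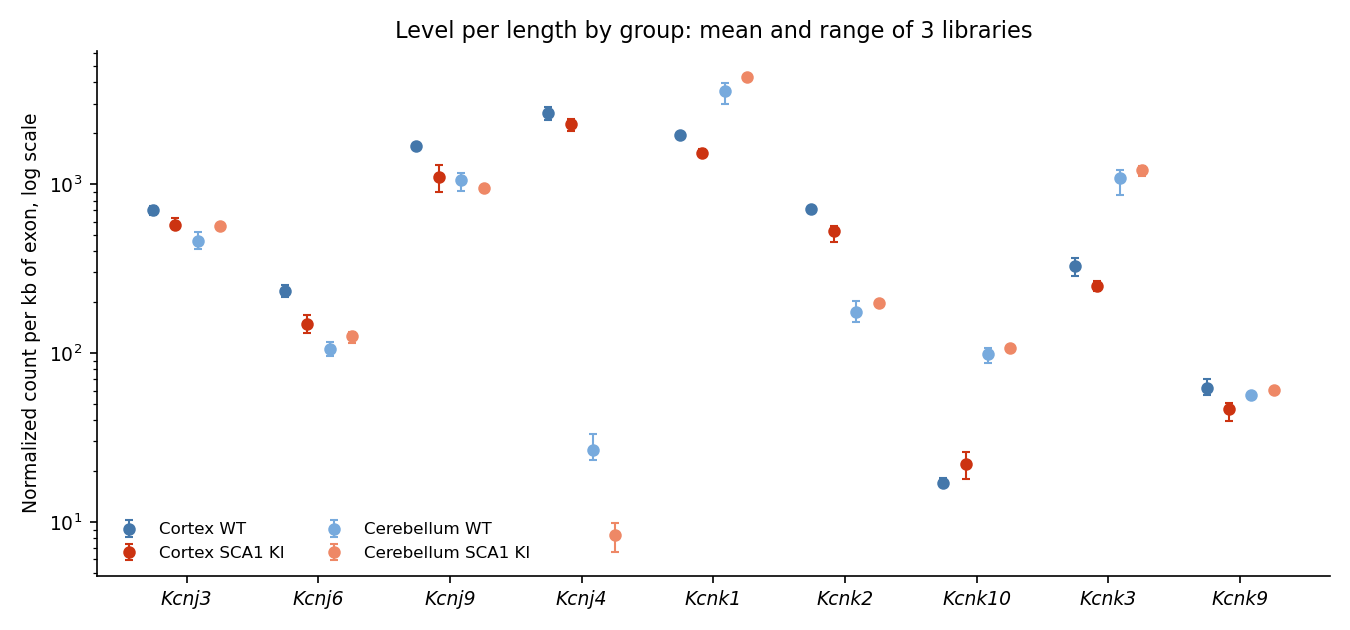
Normalized counts per kb of exon (log axis) of the 9 channel genes in the 4 groups, as the mean (point) and the range (bar) of 3 libraries. Kcnj4 lies at 2650 per kb in WT cortex and at 26.5 in WT cerebellum, whereas Kcnk9 lies at 62.2 and 56.5.

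Between the WT regions 8 of the 9 genes differed, 5 higher in cortex and 3 higher in cerebellum, where 61.7% of all genes tested differed, 31.0% higher and 30.7% lower in cortex. The study took the cerebellar libraries from an earlier data set of the same laboratory, so region and data set cannot be told apart in any value between regions. The log2 fold change (LFC) of WT cortex over WT cerebellum was 6.63 for Kcnj4 (SE 0.156, adjusted p = 6.24e-12 from limma), which is a ratio of means of 99.9. Kcnk2, the mechanically gated TREK-1, had an LFC of 2.03, and the GIRK subunits had 1.16 for Kcnj6, 0.68 for Kcnj9 and 0.61 for Kcnj3. The cerebellum held more of Kcnk10, which encodes TREK-2, with an LFC of −2.52, of Kcnk3, which encodes TASK-1, with −1.70, and of Kcnk1, which encodes TWIK-1, with −0.87. Kcnk9, which encodes TASK-3, had an LFC of 0.13 (95% interval −0.09 to 0.36) and did not pass the test, but passed with the trend on length and GC content removed (0.32, adjusted p = 0.000642). In SCA1 KI, 6 of 9 genes differed between the regions, where 62.4% of all genes did, 32.0% higher and 30.5% lower in cortex. Kcnj4 (LFC 8.02) and Kcnk2 (1.41) were higher in cortex, and Kcnk10 (−2.29), Kcnk3 (−2.29), Kcnk1 (−1.50) and Kcnk9 (−0.38) were higher in cerebellum. The Kcnk9 call was lost with the trend on length and GC content removed (LFC −0.04, adjusted p = 0.558). The 3 GIRK subunits, all higher in cortex in WT, did not pass in SCA1 KI, with LFCs of 0.02 for Kcnj3 (95% interval −0.17 to 0.20), 0.22 for Kcnj6 (−0.01 to 0.45) and 0.20 for Kcnj9 (−0.05 to 0.44). Without cortical SCA1 KI library F, Kcnj6 (0.31, adjusted p = 0.0244) and Kcnj9 (0.34, adjusted p = 0.00895) did pass, higher in cortex. The WT and SCA1 KI comparisons of the regions share no library with each other, each shares its libraries with both comparisons of genotypes, and whether they differ is the test of region by genotype given further on.

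Some facts of the libraries stand beside every comparison of genotypes. The libraries held between 29520855 and 51311309 reads on genes. Cerebellar granule cell markers summed to 139892 to 200133 normalized counts in the cerebellar libraries and to 3804 to 4732 in the cortical ones, so both tissue labels fit their markers. Markers of thalamus and midbrain nevertheless differed by genotype in both regions. In cerebellum all 7 of 7 measured markers of that list were lower in SCA1 KI, with sums of 4984 to 10316 in WT and 1494 to 1880 in SCA1 KI. In cortex 3 of 7 were higher in SCA1 KI (Pou4f1, Shox2 and Tal1), with sums of 1924 to 2261 in WT and 3008 to 3834 in SCA1 KI. Pou4f1, a transcription factor of habenula and midbrain, had 2.21 to 6.83 normalized counts in WT cortex and 217 to 372 in SCA1 KI cortex, and Shox2 had no read in the 3 WT cortex libraries and 16.2 to 51.4 normalized counts in SCA1 KI. WT cerebellar library 2 stood apart, with the highest sum of thalamus and midbrain markers (10316) and the lowest of granule cell markers (139892, against 190954 and 200133 in libraries 6 and 4). WT cortex library B stood apart as well. Its striatum markers summed to 23017 against 10769 and 11695 in libraries C and D, its oligodendrocyte markers to 139520 against 88210 and 81900, and its choroid plexus markers to 1705 against 235 and 243. In SCA1 KI cortex these sums were 7575 to 12348, 87693 to 101539 and 274 to 369, and 1 of the 7 measured striatum markers was called in cortex (Ppp1r1b, lower). Library B was the highest WT cortex library for Kcnj6, Kcnj9, Kcnk2, Kcnk3 and Kcnk9, and without it 4 of the 9 genes were called in cortex, Kcnj3, Kcnk3 and Kcnk9 being lost.

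In SCA1 KI cortex 7 of the 9 channel genes were lower than in WT and none was higher, where a call needed a Benjamini-Hochberg adjusted p below 0.05 together with an LFC beyond 0.25 in either direction. Over all genes tested 10.8% were lower, 4.82% higher and 15.6% changed in either direction, with 741 higher and 1661 lower. The median LFC was −0.39 over the 9 genes and −0.00281 over all genes. The genotypes did not overlap in 7 of the 9 genes, all lower, against 18.0% of all genes that were apart in that direction. Scaling each library to its total of normalized counts moved the median LFC of all genes to 0.14 and turned the split of all genes to 2697 higher and 1017 lower, and 3 of the 9 genes then passed, Kcnj6 and Kcnj9 lower and Kcnk10 higher. Relative to that median the LFCs were −0.65 for Kcnj6, −0.62 for Kcnj9 and 0.36 for Kcnk10, and between −0.43 and −0.22 for the other 6 genes.

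Among the GIRK subunits all 3 fell in SCA1 KI cortex. Kcnj6 encodes GIRK2, the subunit that brings the channel to the cell surface, and lies on chromosome 16 from 94748636 to 94997701 (minus strand). Its normalized counts were 1937, 1769 and 1651 in WT libraries B, C and D and 1127, 1275 and 999 in SCA1 KI libraries A, E and F. Every SCA1 KI value lay below every WT value, and the mean fell from 1786 ± 144 to 1134 ± 138 (SD, n = 3), an LFC of −0.66 (SE 0.105, adjusted p = 0.00097 from limma). Kcnj9 encodes GIRK3, which directs the channel to endosomes, and lies on chromosome 1 from 172320501 to 172329318 (minus strand). Its counts were 7464, 7168 and 6998 in WT and 5513, 4839 and 3856 in SCA1 KI. The spread was wider in SCA1 KI than in WT (SD 834 and 236), library F was lowest, and the groups stayed apart, with an LFC of −0.62 (SE 0.115, adjusted p = 0.00255). Both calls were kept in each of the 12 fits that left out 1 library.

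Kcnj3 encodes GIRK1, the subunit that reaches the membrane in company with another and gives the channel its large current, and lies on chromosome 2 from 55435970 to 55598145 (plus strand). Its counts were 3618, 3431 and 3896 in WT cortex and 2921, 3272 and 2809 in SCA1 KI cortex. The groups were apart by a smaller step than for its partners, with an LFC of −0.28 (SE 0.0872, adjusted p = 0.0412). This call was kept in 3 of 12 fits without 1 library, those without cerebellar WT library 2 or 4 or SCA1 KI cortex library E, and lost in the other 9 with adjusted p from 0.0509 to 0.126, and it was also lost with cortex fitted on its own (0.0701). Exons of the antisense gene Gm26794 cover 31.08% of the exon bases of Kcnj3, and since the strand setting of the counting is not given in the sources used here, reads of the pair cannot be told apart.

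**Figure D2:**
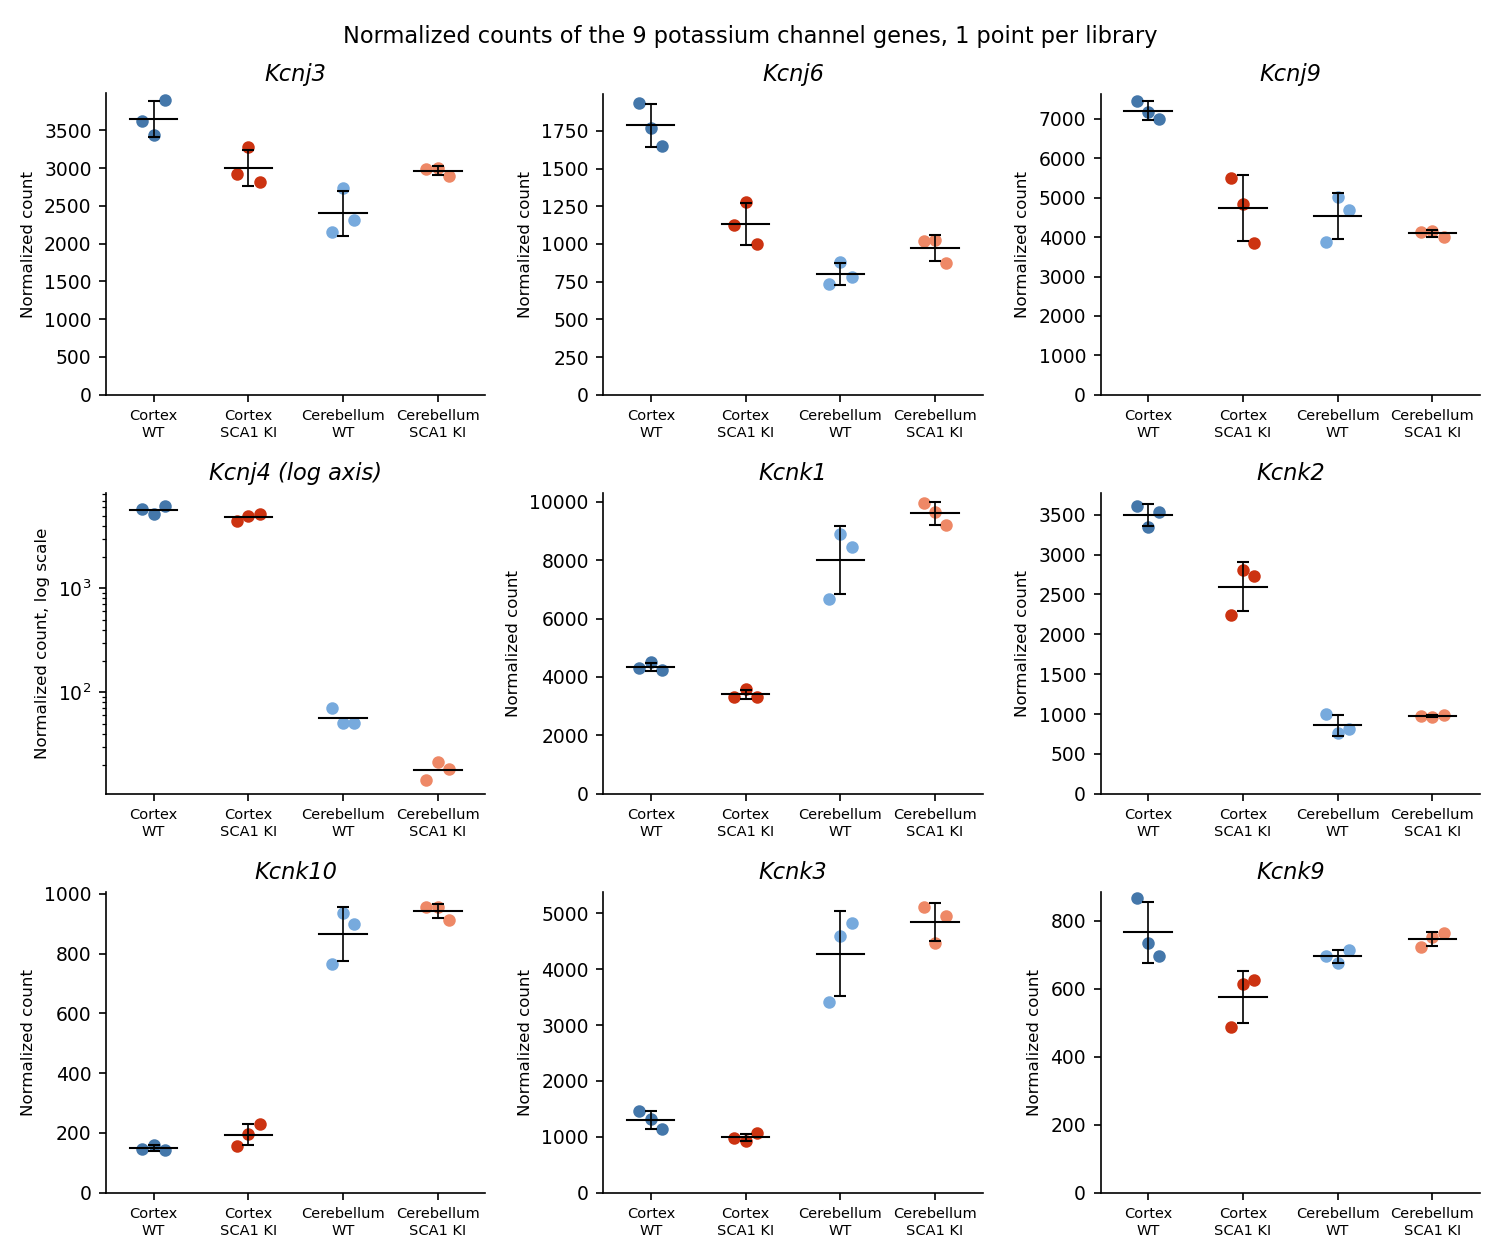
Normalized counts of the 9 genes in each of the 12 libraries (points) with the group mean and, on linear axes, the SD (bars). Axes start at 0 except that of Kcnj4, which is logarithmic, and every SCA1 KI cortex point lies below every WT cortex point for 7 genes, Kcnj4 and Kcnk10 being the exceptions.

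In cerebellum none of the GIRK subunits passed the limma test or edgeR, and 1 (Kcnj3) passed DESeq2. At an unadjusted p under 0.05 limma gave 2 of them, Kcnj3 and Kcnj6, both higher in SCA1 KI. Of all 15369 genes, 2664 passed that cut-off in cerebellum in either direction. Kcnj3 had 2157, 2735 and 2311 in WT libraries 2, 4 and 6 and 2990.1, 3007 and 2894 in SCA1 KI libraries 1, 3 and 5, so that SCA1 KI lay above WT (LFC 0.31, SE 0.0872, adjusted p = 0.0594). This value passed with DESeq2 (adjusted p = 0.0214), with each region centred on its median (0.044), with reads thinned to the smallest library (0.0494), with library totals (0.032) and without WT library 4 (0.00906). Kcnj6 had 738, 883 and 782 in WT and 1017, 1025 and 873 in SCA1 KI, which overlapped (LFC 0.28, adjusted p = 0.171). Kcnj9 had 3884, 5024 and 4682 in WT and 4137, 4149 and 3994 in SCA1 KI, which also overlapped (LFC −0.14, adjusted p = 0.619). WT library 2, which held the most thalamus and midbrain markers, had the lowest value of its group for each of the 3 genes, and without it the LFCs were 0.24, 0.22 and −0.245 for Kcnj3, Kcnj6 and Kcnj9, none of which passed.

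Within the summed GIRK level per length, Kcnj9 took the largest share in every group and Kcnj5, the cardiac subunit, under 0.5%. In WT cortex the shares were 64.1% ± 1.3 for Kcnj9, 26.7% ± 1.73 for Kcnj3 and 8.91% ± 0.563 for Kcnj6 (SD, n = 3). In SCA1 KI cortex they were 60.0% ± 3.89, 31.6% ± 3.17 and 8.12% ± 0.653, and the ranges of the genotypes overlapped for Kcnj9 (62.6% to 65.1% and 57.0% to 64.4%). In cerebellum the Kcnj9 share was 63.7% to 66.5% in WT and 57.6% to 58.1% in SCA1 KI, and the Kcnj3 share was 27.0% to 29.1% and 34.3% to 34.6%. The Kcnj6 share was 6.23% to 6.79% in WT and 7.13% to 8.0% in SCA1 KI cerebellum. These cerebellar ranges were apart, lower in SCA1 KI for Kcnj9 and higher for Kcnj3 and Kcnj6. None of these genes had passed the limma test in cerebellum on its own. The shares were not tested. With the longest transcript as length, Kcnj6 took 16.0% in WT cortex and Kcnj9 60.9%, which left the order as it was.

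Kcnj4 had the largest change of the 9 genes in cerebellum and no called change in cortex. It lies on chromosome 15 from 79483714 to 79505241 (minus strand) and shares no exon base with another gene. In cerebellum its normalized counts were 71.2, 50.1 and 50.1 in WT libraries 2, 4 and 6 and 14.3, 21.3 and 18.4 in SCA1 KI libraries 1, 3 and 5, from 41 to 78 reads and 17 to 31 reads. The groups were apart and the mean fell by 68.5%, an LFC of −1.61 (SE 0.156, adjusted p = 7.52e-05 from limma), which the pseudocount of 1 understates at this level. It was the one member called in cerebellum, where 5.36% of all genes were called, 4.44% lower and 0.917% higher, and the median LFC was 0.19 over the 9 genes and −0.00486 over all genes. The call was kept in every fit that left out 1 library, with LFCs from −1.73 to −1.44, and in the 12 other settings tried on this comparison, from −1.67 to −1.43. In cortex the counts were 5763, 5182 and 6172 in WT and 4456, 5006 and 5219 in SCA1 KI, which overlapped (LFC −0.22, 95% interval −0.56 to 0.12, adjusted p = 0.375).

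Genes of the thalamus and midbrain list and part of the forebrain interneuron list moved with Kcnj4 in cerebellum. Besides the 7 thalamus and midbrain markers, 3 of 7 forebrain interneuron markers were called lower in SCA1 KI cerebellum (Vip, Sst and Npy). Lhx6 was not lower, with 4.66 to 10.99 normalized counts in WT and 5.81 to 10.95 in SCA1 KI. Gad1, Gad2 and Pvalb were not called either, although their SCA1 KI values lay below those of WT. Vip, a neuropeptide, had 129.6, 81.8 and 81.5 normalized counts in WT libraries 2, 4 and 6 and 2.53, 0 and 1.94 in SCA1 KI libraries 1, 3 and 5, and Sst had 368 to 864 and 41.2 to 72.6. Library 2 was the highest WT library for Kcnj4, for Vip and for the thalamus and midbrain sum, and without it the LFC of Kcnj4 was −1.44 (adjusted p = 0.000128). Of the 8 cortical excitatory neuron markers, 1 was lower (Rorb) and 1 was higher (Tbr1) in SCA1 KI cerebellum. Fezf2, which defines deep-layer projection neurons, had no read in 4 of 6 libraries. Marker sums of astrocytes were also lower without overlap (211451 to 226057 in WT and 173088 to 177290 in SCA1 KI cerebellum). So were those of oligodendrocytes (183010 to 273533 and 155811 to 156338) and microglia (5218 to 6798 and 4812 to 5029). Sums of excitatory neuron markers were higher without overlap (18992 to 25361 and 25825 to 28533). Purkinje cell sums overlapped (298497 to 371683 and 276291 to 309211), as did granule cell sums. Among the Purkinje cell markers, Car8, Itpr1 and Rora overlapped, whereas Pcp2, Calb1, Ppp1r17 and Slc1a6 were lower in SCA1 KI cerebellum without overlap. Pcp2, for example, had 9414 to 10742 normalized counts in WT and 7439 to 8031 in SCA1 KI. The part of these and of the thalamus, midbrain and interneuron markers in the fall of Kcnj4 was not tested.

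**Figure D3:**
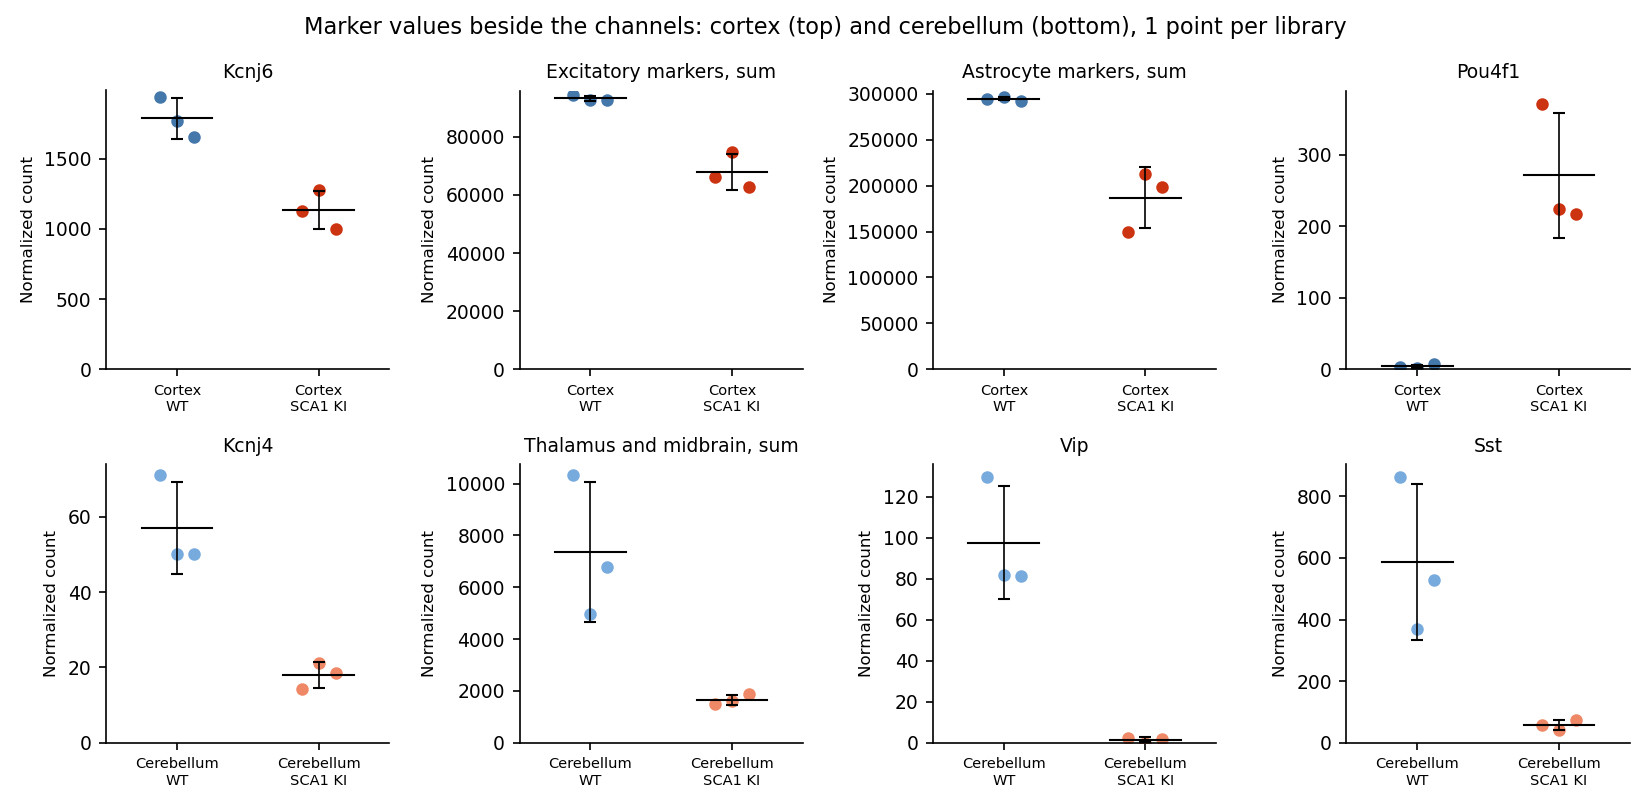
Normalized counts per library (points, mean and SD) of Kcnj6 with marker values in cortex (top row) and of Kcnj4 with marker values in cerebellum (bottom row), on linear axes from 0. Excitatory and astrocyte sums are lower and Pou4f1 is higher in SCA1 KI cortex, and in cerebellum the thalamus and midbrain sum, Vip and Sst are lower in SCA1 KI.

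Of the 5 two-pore channel genes, 4 fell in SCA1 KI cortex and none passed in cerebellum by limma, edgeR or DESeq2. At an unadjusted p under 0.05 limma gave 1 of them in cerebellum, Kcnk1, against 2664 of all 15369 genes. Kcnk1 encodes TWIK-1, a weakly rectifying channel of neurons and astrocytes, and lies on chromosome 8 from 125995170 to 126030685 (plus strand). It had 4289.8, 4511 and 4241 normalized counts in WT cortex and 3311, 3589.7 and 3308 in SCA1 KI cortex. The groups were apart and the mean fell by 21.7% (LFC −0.35, SE 0.0891, adjusted p = 0.0158 from limma), and the call was lost without WT library C (adjusted p = 0.0617). In cerebellum it had 6679, 8880.1 and 8447 in WT and 9943, 9661 and 9188 in SCA1 KI. The SCA1 KI libraries lay above WT by an LFC of 0.27 (adjusted p = 0.109), which passed without WT library 4 (adjusted p = 0.0392) and with library totals (0.0484), and was 0.15 without library 2.

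The TREK channels are opened by stretch, heat and membrane lipids. Kcnk2, which encodes TREK-1, lies on chromosome 1 from 189207930 to 189402273 (minus strand) and had 3608, 3345 and 3541 normalized counts in WT cortex and 2247, 2809 and 2735 in SCA1 KI cortex. All SCA1 KI values lay below WT, the lowest in library A, with an LFC of −0.44 (SE 0.103, adjusted p = 0.0109), and the call was kept in all 12 fits without 1 library. Kcnk10, which encodes TREK-2 (chromosome 12, 98429437 to 98578310, minus strand), was the one member with a positive LFC in cortex, 0.36 (SE 0.126, adjusted p = 0.0682). It had 146, 159 and 143.5 in WT and 158, 196 and 229 in SCA1 KI, where library A lay among the WT values and E and F above them. It passed without library A (LFC 0.50, adjusted p = 0.00902), with library totals (0.50, adjusted p = 0.0108) and with the trend on length and GC content removed (0.43, adjusted p = 0.01). Its share of the summed TREK level per length in cortex was 2.23% to 2.62% in WT and 3.79% to 4.5% in SCA1 KI, ranges that were apart, with no test. In cerebellum Kcnk2 had 759 to 1003 in WT and 963 to 988 in SCA1 KI and Kcnk10 had 765 to 936 and 914 to 957, and both overlapped, with LFCs of 0.19 (adjusted p = 0.369) and 0.13 (adjusted p = 0.695).

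The TASK channels are closed by acid outside the cell and by Gq-coupled receptors. Kcnk3, which encodes TASK-1, lies on chromosome 5 from 30588170 to 30625271 (plus strand) and had 1460.4, 1313 and 1143 normalized counts in WT cortex and 982, 930.1 and 1061 in SCA1 KI cortex. The groups were apart with an LFC of −0.39 (SE 0.123, adjusted p = 0.0446). That call was lost with edgeR (adjusted p = 0.0552), with the trend on length and GC content removed (0.0726) and in 8 of 12 fits without 1 library, with adjusted p from 0.0519 to 0.148, and was kept without any 1 of the cerebellar WT libraries or cortical WT library D. Kcnk9, which encodes TASK-3, lies on chromosome 15 from 72501089 to 72546340 (minus strand) and had 866, 734 and 694 in WT and 486, 612 and 624 in SCA1 KI. Its LFC was −0.42 (SE 0.105, adjusted p = 0.0157), lost without WT library B, its highest (adjusted p = 0.0609), and with cortex fitted on its own (0.073). In cerebellum Kcnk3 had 3411 to 4821 in WT, the lowest in library 2, and 4471 to 5108 in SCA1 KI (LFC 0.19, adjusted p = 0.48). Kcnk9 had 675 to 713 and 723 to 762, which were apart by a small step (LFC 0.10, 95% interval −0.13 to 0.33, adjusted p = 0.713). The share of Kcnk3 in the summed TASK level per length was 84.1% ± 0.571 in WT cortex and 84.2% ± 1.88 in SCA1 KI cortex, and 94.9% ± 0.95 and 95.2% ± 0.386 in cerebellum, so the mix of the pair differed between regions by more than between genotypes.

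**Figure D4:**
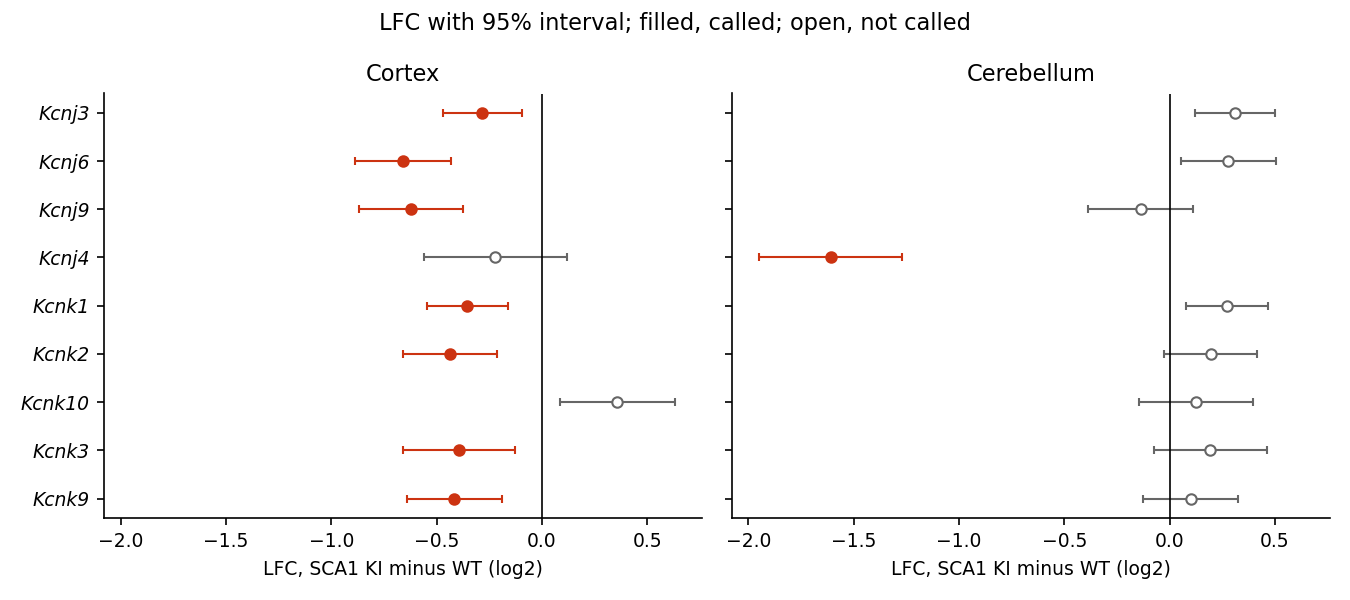
LFC of SCA1 KI over WT for the 9 genes in cortex (left) and cerebellum (right), with the 95% interval of the limma fit as bars. Filled points were called and open points were not, which gives 7 called genes in cortex, all below 0, and 1 in cerebellum, Kcnj4 at −1.61.

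Cell type markers moved with the lower channel transcripts of SCA1 KI cortex. The 8 markers of cortical excitatory neurons summed to 92705 to 94328 normalized counts in WT and 62625 to 74961 in SCA1 KI, and 3 of them were called lower (Rorb, Cux2 and Slc17a7). The 7 interneuron markers summed to 36026 to 37985 and 25364 to 32902, with 3 called lower (Pvalb, Gad1 and Npy). Sst (4946 to 5886 in WT, 3158 to 3592 in SCA1 KI) and Vip (1793 to 2269, 881 to 1282) were apart but not called. Gad1 was called although its groups overlapped (14543 to 17177 and 9959.5 to 15740), as did those of Gad2, which was not called. The 7 astrocyte markers summed to 292704 to 296177 and 149119 to 212492, with 5 called lower. Endothelium markers summed to 9938 to 10192 in WT and 8542 to 8657 in SCA1 KI. The genotypes overlapped for each gene of that sum taken alone (Cldn5, Pecam1, Flt1, Slc2a1 and Ly6c1). Oligodendrocyte and microglia markers had none called in cortex, with sums of 81900 to 139520 and 14492 to 15882 in WT and 87693 to 101539 and 14592 to 15115 in SCA1 KI. Markers of excitatory neurons that were not called included Neurod6, with 2811 to 4173 in WT and 2638 to 3374 in SCA1 KI. They also included Tbr1, whose groups were apart (7681.8 to 8222 and 5676.5 to 6747.3). The part of these markers, and of the thalamus and midbrain markers given above, in the fall of the channel transcripts was not tested.

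The LFC differed between the regions for 5 of the 9 genes (limma test of the region by genotype term, adjusted p under 0.05), against 8.15% of all genes, 4.89% with the lower and 3.26% with the higher LFC in cortex. For 4 of them the LFC was lower in cortex than in cerebellum. Kcnj6 had the largest such difference, −0.94 (SE 0.148, adjusted p = 0.00227), followed by Kcnk2 with −0.63 (adjusted p = 0.018), Kcnk1 with −0.63 (adjusted p = 0.00882) and Kcnj3 with −0.59 (adjusted p = 0.0104). Kcnj4 differed the other way by 1.39 (SE 0.221, adjusted p = 0.00238). Kcnk9 with −0.52 (adjusted p = 0.0506), Kcnk3 with −0.59 (adjusted p = 0.0578) and Kcnj9 with −0.48 (adjusted p = 0.0934) did not pass. Kcnk9 passed in 6 of 11 other settings (adjusted p from 0.0173 with DESeq2 to 0.0482 with edgeR) and in 3 of 12 fits without 1 library, those without cortical libraries D, E or F. Kcnk3 passed in 3 of 11 settings (adjusted p = 0.0201 with DESeq2) and in 2 of 12 fits, without WT libraries D or 6. Kcnj9 passed in none of the settings and in 1 fit, without cortical SCA1 KI library A (adjusted p = 0.0253). Kcnk10 had 0.23 (95% interval −0.15 to 0.62, adjusted p = 0.506). Leaving out any 1 library kept the 5 calls, and Kcnk2 missed the threshold with library totals (adjusted p = 0.0526).

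Of 20 other listed channels of the 2 families, 14 were measured, and 5 were lower in SCA1 KI cortex, 4 were lower in SCA1 KI cerebellum and none was higher in either region, against 10.8% and 4.44% of all genes that were lower. Their median LFC was −0.38 in cortex and −0.32 in cerebellum. In cortex the called genes were Kcnk4, which encodes the mechanically gated TRAAK (LFC −1.28, adjusted p = 0.00346), Kcnj12 of the Kir2 group (−0.73, adjusted p = 0.004), Kcnk12, a silent two-pore subunit (−0.67, adjusted p = 0.0044), Kcnj10, the potassium buffer of astrocytes (−0.58, adjusted p = 0.00345), and Kcnj11, the pore of the ATP-sensitive channel (−0.38, adjusted p = 0.00527). In cerebellum they were Kcnj14 (−1.80, adjusted p = 0.0418) and Kcnj2 (−1.02, adjusted p = 0.00682), both of the Kir2 group, Kcnk4 (−1.09, adjusted p = 0.0222) and Kcnj16, a partner of Kcnj10 (−0.34, adjusted p = 0.0222). Kcnj2 had 510, 265 and 337 normalized counts in WT libraries 2, 4 and 6 and 178, 163 and 188 in SCA1 KI cerebellum, again with its highest value in library 2, and an LFC of −0.76 without that library (adjusted p = 0.00876). Without library 2 the cerebellar calls of Kcnk4 (LFC −0.89, adjusted p = 0.0919) and Kcnj16 (−0.26, adjusted p = 0.0826) were lost. Kcnk4 was also lost without library 5 or 6 and with cerebellum fitted on its own (adjusted p = 0.0779), and Kcnj16 without library 1, 3 or 5 (adjusted p from 0.0638 to 0.0983). Kcnj14 rested on means of 21.4 and 5.43 normalized counts and was lost in 9 of 12 fits without 1 library. Kcnj12 (−0.91, adjusted p = 0.0165) and Kcnk12 (−0.84, adjusted p = 0.0178) also differed between the regions. The cortical call of Kcnj11 was lost with library totals, where its LFC was −0.24. Exons of Catsperz, on the same strand, cover 13.15% of the exon bases of Kcnk4.

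Receptors and regulators that act on GIRK channels were listed as 20 genes, all measured, of which 7 were lower and none higher in SCA1 KI cortex, with a median LFC of −0.12, against 10.8% of all genes lower and 4.82% higher. With library totals 5 were lower and 4 higher (Kctd12, Gng3, Gnai2 and Gnai3). Both GABA-B receptor subunits were among the 7 lower genes (limma), Gabbr2 (LFC −0.56, adjusted p = 0.000877) and Gabbr1 (−0.25, adjusted p = 0.0165), with the auxiliary subunit Kctd16 (−0.85, adjusted p = 0.00868). The LFC of Gabbr1 lay just past the limit of 0.25, and its call was lost with edgeR (−0.24), with the trend on length and GC content removed (−0.17), with library totals (−0.11, adjusted p = 0.149), with cortex fitted on its own (adjusted p = 0.0911) and without library A, B or C. The others were Adora1, the inhibitory adenosine A1 receptor (−0.68, adjusted p = 0.00019), and Rgs7 (−0.51), Rgs7bp (−0.54) and Rgs6 (−0.39), which speed the closing of GIRK channels and had adjusted p of 0.000268, 0.000852 and 0.00662. The list also held G protein subunits, none of which was called in cortex. In SCA1 KI cerebellum 4 of the 20 were lower and 1 was higher, with a median LFC of −0.06, against 4.44% and 0.917% of all genes. Of the 4 measured GABA-B auxiliary subunits, 3 were called there and in both directions, with Kctd16 (−1.16, adjusted p = 0.0034) and Kctd12 (−0.73, adjusted p = 0.000154) lower and Kctd8 (0.44, adjusted p = 0.00775) higher, beside lower Gabbr1 (−0.34, adjusted p = 0.00869) and Rgs6 (−0.41, adjusted p = 0.0145, lost without SCA1 KI library 1 or 3). The auxiliary subunit Kctd12b had −0.08 (adjusted p = 0.776), and Gabbr2 had −0.32 (adjusted p = 0.0525). Exons of Gm26778 on the other strand and of Mir5130 cover 64.21% of the exon bases of Kctd12, so its reads may include those of its antisense neighbour. Genes on the other strand also cover 20.09% of the exon bases of Adora1 (Mybph) and 10.35% of those of Kctd16 (AC098707.1).

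Regulators of two-pore, Kir2 and ATP-sensitive channels were listed as 8 genes, of which 4 were lower in SCA1 KI cortex and none was called in cerebellum. Over all genes 10.8% were lower in cortex and 5.36% were called in cerebellum. The median LFCs of the 8 genes were −0.47 and −0.04. The list held Abcc8 and Abcc9, subunits of the ATP-sensitive channel, and neither was called. Plcb1 and Plcb4, the phospholipases through which Gq-coupled receptors close TASK and TREK channels, had LFCs of −0.70 (adjusted p = 1.43e-05) and −0.64 (adjusted p = 4.26e-05). Dlg4, which encodes the postsynaptic scaffold PSD-95 that binds Kir2 channels, had −0.52 (adjusted p = 0.000123), and Akap5, a kinase anchor that binds TREK-1, had −0.67 (adjusted p = 0.0157), a call that was lost without library A (0.0599) or C (0.0739). In cerebellum these 4 had 0.14, −0.04, −0.15 and 0.06 in that order.

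**Figure D5:**
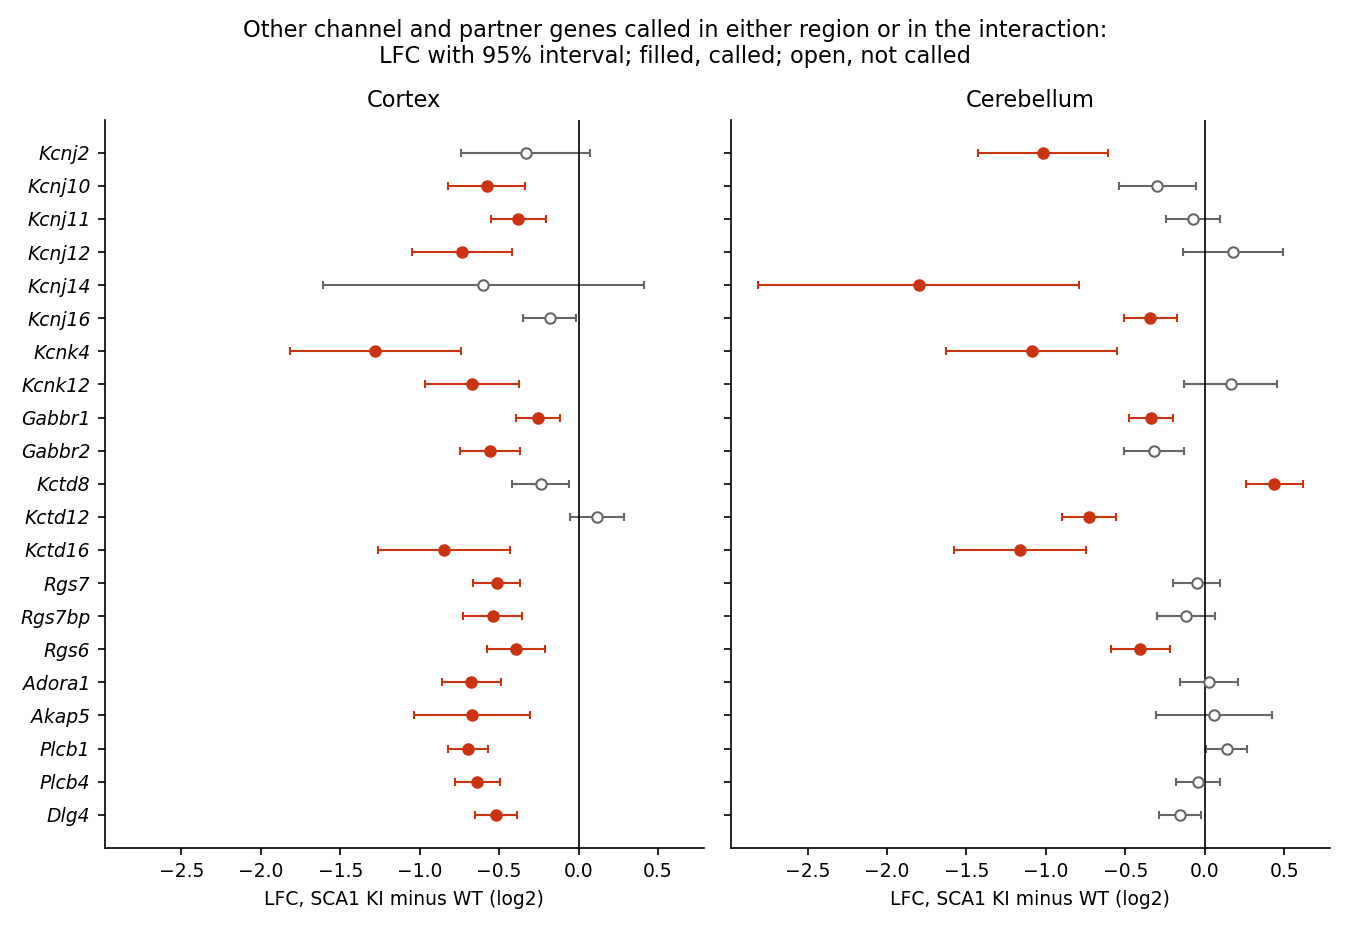
LFC of SCA1 KI over WT in cortex (left) and cerebellum (right) for the other channel genes and the listed partners that were called in either region or in the test of region by genotype, with the 95% interval as bars. Filled points were called, and Kctd8 in cerebellum is the one filled point above 0.

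For each member the gene with the most similar pattern over the 12 libraries was taken, as the smallest root mean square difference of log2(normalized count + 1) after centring each gene, among 15360 other genes. The closest pairs were Kcnk9 with 2610507B11Rik (0.0741 on the log2 scale), Kcnk1 with E330009J07Rik (0.0755) and Kcnj6 with Hivep2 (0.0776). Kcnj3 went with Usp12 (0.0914), Kcnk2 with Cacna2d1 (0.102), Kcnj9 with Incenp (0.103), Kcnk3 with Itpr3 (0.108) and Kcnk10 with Kat2b (0.119). Kcnj4 was matched least closely, by Chrm1 (0.297), whose LFC in cerebellum was −1.37 and whose WT cortex level exceeded that of WT cerebellum by 7.35 on the log2 scale.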

How the data were processed

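Poly-adenylated RNA of cortex and cerebellum was sequenced by the authors as paired ends in 12 libraries, 3 per group. Alignment by the authors used STAR and mm10, gene counting featureCounts and normalization DESeq2 (versions not given in the sources used here). The deposited signal is the normalized count, the reads divided by 1 size factor per library, and the study describes its cerebellar data as generated earlier and analysed again. In every library 100% of values were whole reads within 0.01, so reads were recovered for the count tests.

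Log2(normalized count + 1) was fitted for 15369 genes (mean of 10 or more) with limma 3.58.1 in R 4.3.3 (4 group means, empirical Bayes with a trend). Adjusted p are Benjamini-Hochberg values over all genes tested. Calls needed an adjusted p below 0.05 and, except for the region by genotype term, an LFC beyond 0.25 in either direction. Shares and levels use exon lengths of GENCODE vM21 (14977 of 15758 symbols matched 1 gene), and windows come from RefSeq. The longest stretch that a member's transcripts share with another gene of the 2 families was 59 bases (Kcnk3 and Kcnj10), shorter than a read. Exons of other genes overlapped those of 6 members: Kcnj3 (31.08% of exon bases), Kcnk2 (12.22%), Kcnk1 (8.01%), Kcnk3 (5.76%), Kcnj6 (4.98%) and Kcnj9 (4.01%).

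The members, the gene lists and the named genes were chosen with earlier results of these data known. Named were all members, the called genes of the listed channels and partners, and for each member the gene closest in pattern. The motifs other than the 2 octamers and the scaling to library totals were added after the data were seen. Alternatives were a pseudocount of 0.5 or 5, a minimum mean of 100 or none, each region on its own, centring on the region's median, edgeR 4.0.16 (quasi-likelihood test), DESeq2 1.42.0, removal of the trend on length and GC content, reads thinned to 29520855 per library, no limit on the LFC, the longest transcript as length, library totals and 12 fits that each left out 1 library. The fits were tested on simulated data with known changes. Figures were drawn with matplotlib 3.10.9. Protein sequences, RT-qPCR and histology were not analysed here.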

Additional observations from a re-analysis of the deposited data

Results flagged for a closer look

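The response to the genotype differed between the regions (limma, region by genotype term, LFC in cortex minus LFC in cerebellum, 3 libraries per group) for 5 of the 9 channel genes. It also differed for 2 of 14 other channels, 5 of 20 GIRK partners and 3 of 8 regulators of two-pore, Kir2 and ATP-sensitive channels. Over all genes the share was 8.15%. Among the members the difference was −0.94 for Kcnj6, −0.63 for Kcnk1, −0.63 for Kcnk2, −0.59 for Kcnj3 and 1.39 for Kcnj4. Among the other channels it was −0.91 for Kcnj12 and −0.84 for Kcnk12, both lower in SCA1 KI cortex with cerebellar LFCs of 0.18 and 0.16 that did not pass. Among the partners it was −0.84 for Plcb1, −0.59 for Plcb4, −0.70 for Adora1, −0.46 for Rgs7, −0.43 for Rgs7bp and −0.37 for Dlg4. The auxiliary subunits of the GABA-B receptor differed in both directions, −0.68 for Kctd8 and 0.84 for Kctd12. Of these, Rgs7bp (adjusted p = 0.0468) missed the threshold in 9 of 12 fits without 1 library and with library totals (0.0916). Dlg4 missed it with library totals (0.0581) and without cerebellar SCA1 KI library 1 (0.0661), and Kcnk12 missed it without that library (0.0532).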

How the results depend on the processing

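In cortex 7 of 9 channel genes were called, 5 with cortex fitted on its own (without Kcnj3 and Kcnk9), 6 with edgeR (without Kcnk3), 3 with library totals and 4 to 7 in fits without 1 library, with 4 without WT library B or C. In cerebellum 1 was called, 2 with regions centred on their medians, with DESeq2 or with reads thinned, 3 with library totals and 1 to 3 without 1 library, with 3 without WT library 4. With the longest transcript as length, levels per kb in WT cortex were 1870 for Kcnj9, 979 for Kcnk2, 492 for Kcnj6 and 20.1 for Kcnk10, and in WT cerebellum 240 for Kcnk2, 221 for Kcnj6 and 116 for Kcnk10. The region by genotype term gave 5, and 4 to 7 in other settings. The LFC between regions turned sign for Kcnk9 in WT with library totals (−0.043) and for Kcnj3 in SCA1 KI with library totals (−0.0399) and in fits without 1 library (−0.0487 to 0.0612), below 0 without cerebellar SCA1 KI library 5 (−0.0019) and without cortical SCA1 KI library E (−0.0487), none of which passed. Library totals moved the median LFC of all genes to 0.14 in cortex, 0.13 in the region by genotype term and −0.17 between the WT regions. Counts over all genes moved from 2402 to 3714 in cortex with library totals. They moved from 824 in cerebellum to 399, 454 and 512 without SCA1 KI library 1, 3 or 5, and from 1253 in the region by genotype term to 784 and 834 without SCA1 KI library 1 or 3. Values over all settings were counted for the members in every comparison. Other named channels and partners were counted only in comparisons where the main fit called them, so only members could gain a call. Genes closest in pattern were left out. Of these values, 1757 kept their direction and call, 74 lost the call, 28 gained it and 4 turned sign. The cause of these changes was not tested. With 3 libraries per group, values that missed the threshold do not show equal levels. No paired analysis was possible because the deposited columns carry no replicate number of the labels.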
